A study of Homo sapiens with 8 samples.

Results

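The circadian clock and output genes described here are PER1, PER2, PER3, CRY1, CRY2, NR1D1, NR1D2, DBP, TEF and BHLHE40. They were taken by an exact match of their symbols in the gene column of the count tables, where all 10 were found among 28265 RefSeq genes, and all 10 passed the filter on low counts in every comparison. RNA was profiled in IMR90, a cell line of fetal human lung fibroblasts with a finite lifespan in culture, in 4 conditions with 2 libraries each. Control libraries came from low-passage cells without the compound (labelled young), others from low-passage cells after 3 or 6 days with inflachromene (ICM), a small molecule that binds the chromatin proteins HMGB1 and HMGB2, and the last from low-passage cells labelled MetaICM, for which the labels give neither a dose nor a duration. The labels give no dose of ICM, no vehicle for the control and no genetic change in any condition. The question for these genes was how much RNA each gave in each condition, and whether 3 and 6 days of ICM differed.

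The libraries are named factory RNA-seq, an approach made to enrich RNA at sites of transcription. Their extraction text, however, describes direct lysis of near-confluent cells, isolation of total RNA and poly(A) selection, so that counts on exons do not separate nascent from mature RNA. The libraries held 12095123 to 23166405 counted read pairs, and each of the 8 was closest to the other library of its own condition. Fibroblast markers reached at least 10 counts in every library for 9 of 10 genes, with a summed level of 4511 to 4618 RPKM in control, 2679 to 2978 after 3 days, 2358 to 2378 after 6 days and 4324 to 4550 in MetaICM. Summed RPKM of 6 blood markers was 2.74 to 3.32 in control, 10.5 to 12.6 after 3 days, 10.9 to 12.8 after 6 days and 7.98 to 7.99 in MetaICM, with CD3E at 0 in all libraries. Only 1 of these 6 reached 10 counts in every library. Summed RPKM of 6 epithelial markers was 2.85 to 4.01 in control, 0.394 to 0.737 after 3 days, 0.348 to 0.459 after 6 days and 5.33 to 5.51 in MetaICM, and that of 5 endothelial markers was 0.467 to 0.905 over all libraries. Of these, 0 of the 6 epithelial and 2 of the 5 endothelial markers reached 10 counts in every library. The blood, epithelial and endothelial sums can thus rest on few genes. The fibroblast, blood and epithelial sums thus differed from control after both 3 and 6 days of ICM. Between 3 and 6 days the blood and epithelial sums overlapped, whereas the fibroblast sums did not. The part of these sums in the values below was not tested. In such bulk RNA, fewer cells of a type and less RNA per cell cannot be told apart. The labels do not say whether the 2 libraries of a condition came from separate cultures, so p-values measure only the spread between these libraries.

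The circadian clock of mammalian cells is a transcriptional feedback loop that runs in most cell types, fibroblasts included. The activators CLOCK and BMAL1 (gene ARNTL) bind E-boxes and drive transcription of the PER and CRY genes, whose proteins return to the nucleus and repress those same activators. In a coupled loop the nuclear receptors NR1D1 and NR1D2 (REV-ERBα and REV-ERBβ) repress ARNTL through ROR elements, and DBP and TEF carry the rhythm to output genes through D-boxes. Because the RNA of most of these genes cycles over the day and fresh serum can reset the cycle, the level at a single harvest depends on the phase of the culture. Each condition is a single time point, and neither the time of day nor the time since the last medium change is given, so a change in level and a shift in phase cannot be told apart in any comparison below.

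Promoter sequences of RefSeq (GRCh38.p14, 250 bases before to 50 after the start site) were at hand for all 10 genes and were searched for the elements named above. The E-box CACGTG was in at least one promoter of PER1, NR1D2, TEF and BHLHE40, and in 7.26% of 35116 RefSeq promoters. Its variant CACGTT was in those of PER2, CRY1, CRY2 and NR1D1 and in 5.34% of all. The D-box, searched as TTATGTAA or TTACGTAA, was in those of PER2, PER3 and NR1D2 and in 1.01% of all. The ROR element TAGGTCA was in that of CRY2, and outside the 10 genes in those of ARNTL and NFIL3, and in 1.85% of all. Both strands were searched, and no matches in these genes overlapped. Of the 10 genes, 9 had an E-box, its variant or a D-box, the exception being DBP. The percentages are of promoters, and the 10 genes had 14 of these. Of the 14, 5 had the E-box, 4 its variant and 3 the D-box. The share of all promoters with any of these elements was not counted. A match describes these letters and was not tested as a site. Some promoters are given in the sense of the gene, with the matched letters in capitals. They include those of the 3 PER genes, of which PER1 stood less far below control than PER2 and PER3 after 6 days of ICM. The others are those of NR1D1 and ARNTL, repressor and target in the coupled loop. Coordinates are those of the exact match in GRCh37. PER3 and ARNTL each had another promoter, without a match, that is not shown. That of ARNTL lies at the start of the gene in the counts, and the start site of the one shown 1138 bases further on.
PER1, chr17:8055673-8055972, minus strand, E-box beginning 173 bases before the start site: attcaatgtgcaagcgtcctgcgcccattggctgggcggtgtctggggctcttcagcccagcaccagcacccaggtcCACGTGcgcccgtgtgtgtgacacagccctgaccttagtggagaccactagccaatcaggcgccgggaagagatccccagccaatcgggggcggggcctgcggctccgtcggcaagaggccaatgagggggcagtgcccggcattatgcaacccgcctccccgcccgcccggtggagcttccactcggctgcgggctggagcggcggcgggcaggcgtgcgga
PER2, chr2:239197202-239197501, minus strand, E-box variant beginning 197 bases and D-box 3 bases before the start site: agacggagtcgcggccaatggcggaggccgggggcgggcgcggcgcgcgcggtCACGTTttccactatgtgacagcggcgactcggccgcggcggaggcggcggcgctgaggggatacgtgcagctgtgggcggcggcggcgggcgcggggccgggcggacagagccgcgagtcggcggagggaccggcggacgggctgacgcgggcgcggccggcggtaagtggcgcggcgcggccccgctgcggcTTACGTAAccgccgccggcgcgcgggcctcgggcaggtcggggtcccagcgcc
PER3, chr1:7844101-7844400, plus strand, D-box beginning 177 bases before the start site: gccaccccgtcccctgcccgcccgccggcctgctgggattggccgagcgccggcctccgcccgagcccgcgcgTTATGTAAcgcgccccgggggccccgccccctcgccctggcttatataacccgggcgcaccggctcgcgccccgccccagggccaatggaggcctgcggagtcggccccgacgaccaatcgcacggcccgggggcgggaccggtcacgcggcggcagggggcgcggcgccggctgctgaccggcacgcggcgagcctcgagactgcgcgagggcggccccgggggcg
NR1D1, chr17:38256793-38257092, minus strand, E-box variant (reverse strand) beginning 168 bases before the start site: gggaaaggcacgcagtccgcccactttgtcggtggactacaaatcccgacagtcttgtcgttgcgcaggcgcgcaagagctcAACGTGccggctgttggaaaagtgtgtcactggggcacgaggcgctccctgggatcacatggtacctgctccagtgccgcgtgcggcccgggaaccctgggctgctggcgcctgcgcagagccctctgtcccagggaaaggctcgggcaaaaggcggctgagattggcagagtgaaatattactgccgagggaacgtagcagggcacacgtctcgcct
ARNTL, chr11:13299087-13299386, plus strand, ROR element beginning 30 bases after the start site: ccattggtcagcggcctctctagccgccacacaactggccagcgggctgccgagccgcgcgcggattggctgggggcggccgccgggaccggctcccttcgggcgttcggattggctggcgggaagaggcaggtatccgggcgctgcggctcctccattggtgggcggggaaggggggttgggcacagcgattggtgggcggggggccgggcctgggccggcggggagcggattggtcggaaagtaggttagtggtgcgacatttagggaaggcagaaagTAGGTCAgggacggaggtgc

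Across the 4 conditions, 8 of the 10 genes differed in a quasi-likelihood F-test of edgeR at an adjusted p under 0.05, CRY1 and DBP being the exceptions, against 62.2% of the 16591 genes tested. The most common pattern was a low level after 6 days of ICM. In 8 of the 10 genes, all but CRY1 and BHLHE40, both 6-day libraries lay below the other 6 libraries in TMM-normalized CPM (counts scaled to a common library size), which held for 13.1% of all genes tested. In 5 of the 10 genes, PER1, PER2, NR1D1, NR1D2 and BHLHE40, both 3-day libraries lay above the other 6, against 7.11% of all genes. The plot of CPM by library shows both patterns.

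**Figure D1:**
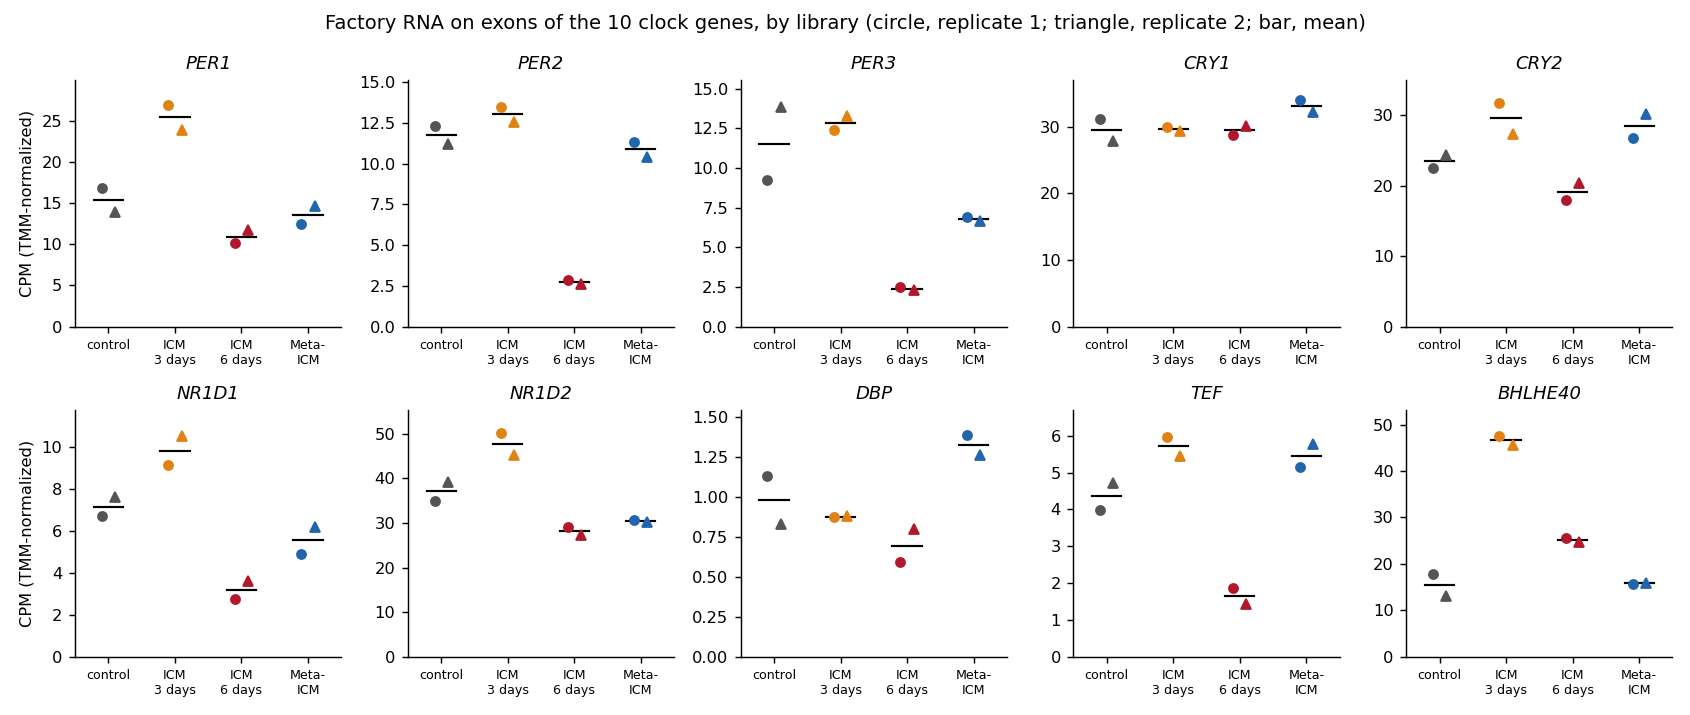
CPM of each of the 10 clock genes (vertical axes, each from 0) in the 8 libraries, by condition, with circles for replicate 1, triangles for replicate 2 and bars for the mean of 2. PER2, PER3 and TEF are lowest after 6 days of ICM, BHLHE40 and PER1 are highest after 3 days, and CRY1 lies near 30 CPM in control and both ICM conditions.

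Per exon length, in RPKM, CRY1 was the most abundant of the 10 RNAs in control at 9.87, followed by NR1D2 at 6.78, CRY2 at 5.46, BHLHE40 at 4.93, PER1 at 3.28, NR1D1 at 2.73, PER2 at 1.84, PER3 at 1.74, TEF at 0.936 and DBP at 0.451. The libraries of CRY2 and BHLHE40 overlapped in this order, as did those of PER2 and PER3. After 3 days BHLHE40 came first at 14.8 RPKM, ahead of CRY1 at 9.94. After 6 days CRY1 was first again at 9.86, and PER3, TEF and DBP lay together at the foot of the order, at 0.359, 0.357 and 0.320 RPKM, with overlapping libraries. In MetaICM the first 4 were CRY1 at 11.1, CRY2 at 6.63, NR1D2 at 5.57 and BHLHE40 at 5.01 RPKM.

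The PER genes encode the repressors that set the timing of the negative limb. PER1 (chr17:8043790-8055722, minus strand, 4676 exon bases) stood at 16.8 and 13.9 CPM in control, 26.9 and 23.9 after 3 days, 10.2 and 11.7 after 6 days and 12.5 and 14.6 in MetaICM. Its 3-day libraries were above and its 6-day libraries below all others. PER1 was 1.65-fold higher after 3 days than in control, a log2FC of 0.72 (SE 0.17, edgeR adjusted p = 0.00682), and 2.34-fold lower after 6 days than after 3, a log2FC of -1.23 (SE 0.13, edgeR adjusted p = 2.65e-06). Against control, the 6-day difference of -0.50 (SE 0.17) had an adjusted p of 0.0362 in edgeR but did not reach the log2FC cutoff of 0.6.

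PER2 (chr2:239152685-239197251, minus strand, 6380 exon bases) showed no such rise. It stood at 12.3 and 11.2 CPM in control, 13.5 and 12.5 after 3 days, 2.85 and 2.61 after 6 days and 11.3 and 10.4 in MetaICM. The 6-day libraries were far below the rest, which lay within a narrow band. The 6-day level was 4.32-fold below control, a log2FC of -2.11 (SE 0.20, edgeR adjusted p = 2.13e-05), and 4.79-fold below 3 days, a log2FC of -2.26 (SE 0.19, edgeR adjusted p = 9.09e-08). The 3-day difference from control was 0.14 (95% interval -0.25 to 0.53).

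PER3 (chr1:7844247-7905240, plus strand, 6628 exon bases) followed PER2 after 6 days and differed from it in MetaICM. Its levels were 9.22 and 13.8 CPM in control, 12.4 and 13.3 after 3 days, 2.47 and 2.29 after 6 days and 6.89 and 6.65 in MetaICM. The control libraries stood far apart and enclosed the 3-day ones, whereas the MetaICM libraries lay between control and 6 days. PER3 was 4.81-fold lower after 6 days than in control, a log2FC of -2.27 (SE 0.26, edgeR adjusted p = 6.80e-05), and 5.40-fold lower than after 3 days, a log2FC of -2.43 (SE 0.20, edgeR adjusted p = 5.12e-08). These were the largest differences among the 10 genes in either comparison.

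The CRY genes encode the partners of PER, CRY1 being the stronger repressor of CLOCK and BMAL1. CRY1 (chr12:107385143-107487327, minus strand, 2986 exon bases) stood at 31.1 and 27.8 CPM in control, 29.9 and 29.4 after 3 days, 28.7 and 30.1 after 6 days and 34.0 and 32.2 in MetaICM. Control, 3-day and 6-day libraries overlapped throughout. The log2FC against control was 0.01 (95% interval -0.31 to 0.32) after 3 days and -0.01 (-0.30 to 0.28) after 6 days, with a sign that depended on the normalization. Differences smaller than those intervals were not detectable with 2 libraries per condition.

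CRY2 (chr11:45868669-45904799, plus strand, 4299 exon bases) changed modestly, with 22.5 and 24.4 CPM in control, 31.7 and 27.3 after 3 days, 17.9 and 20.3 after 6 days and 26.8 and 30.2 in MetaICM. The 3-day libraries were above and the 6-day libraries below those of control. Neither difference from control passed, at 0.33 (SE 0.15, edgeR adjusted p = 0.127) and -0.30 (SE 0.14, edgeR adjusted p = 0.121), but 6 days was lower than 3 days by a log2FC of -0.64 (SE 0.12, edgeR adjusted p = 0.00117). That value is close to the cutoff of 0.6 and fell short of it without 3-day replicate 1 (-0.51), without 6-day replicate 1 (-0.54) and with libraries thinned to equal depth (-0.57).

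NR1D1 and NR1D2 encode REV-ERBα and REV-ERBβ, the repressors of ARNTL. NR1D1 (chr17:38249046-38256842, minus strand, 2630 exon bases) stood at 6.72 and 7.62 CPM in control, 9.15 and 10.5 after 3 days, 2.74 and 3.62 after 6 days and 4.90 and 6.21 in MetaICM. The conditions did not overlap and ran from 3 days, the highest, through control and MetaICM to 6 days. The 6-day level was 2.25-fold below control, a log2FC of -1.17 (SE 0.23, edgeR adjusted p = 0.00264), and 3.09-fold below 3 days, a log2FC of -1.63 (SE 0.21, edgeR adjusted p = 1.53e-05). The 3-day difference from control, 0.45 (SE 0.21), did not pass (edgeR adjusted p = 0.127).

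Of the exon bases of NR1D1, 473, or 17.98%, are also exon of THRA, a thyroid hormone receptor gene on the opposite strand. Pairs on several genes were counted for neither, and strand was not used. THRA, named here for that overlap, had 14.7 and 16.9 CPM in control, 12.4 and 9.98 after 3 days, 9.56 and 10.05 after 6 days and 16.5 and 17.6 in MetaICM. Its 6-day log2FC against control was -0.69 (SE 0.16, edgeR adjusted p = 0.00682), in the direction of NR1D1, while its 3-day value of -0.49 (SE 0.19, edgeR adjusted p = 0.0714) had the opposite sign, and its part in the NR1D1 counts was not tested.

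NR1D2 (chr3:23986777-24022109, plus strand, 5472 exon bases) stood at 35.0 and 39.3 CPM in control, 50.1 and 45.3 after 3 days, 29.1 and 27.4 after 6 days and 30.8 and 30.2 in MetaICM. It had the order of NR1D1 with smaller distances. Among the ICM comparisons, only the step from 3 to 6 days passed both cutoffs, at -0.76 (SE 0.11, edgeR adjusted p = 5.69e-05). Against control the log2FC was 0.36 (SE 0.14, edgeR adjusted p = 0.0782) after 3 days and -0.40 (SE 0.13, edgeR adjusted p = 0.0327) after 6 days, the latter short of the fold cutoff.

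DBP and TEF encode related PAR-domain bZIP activators, the output arm that acts on D-boxes. TEF (chr22:41763337-41795332, plus strand, 4650 exon bases) stood at 3.99 and 4.72 CPM in control, 5.98 and 5.46 after 3 days, 1.88 and 1.44 after 6 days and 5.15 and 5.78 in MetaICM. The 6-day libraries were the lowest by a wide margin, while the 3-day and MetaICM libraries overlapped. TEF fell 2.61-fold from control to 6 days, a log2FC of -1.39 (SE 0.28, edgeR adjusted p = 0.00288), and 3.47-fold from 3 to 6 days, a log2FC of -1.79 (SE 0.25, edgeR adjusted p = 5.17e-05). Its 3-day value against control was 0.40 (SE 0.24, edgeR adjusted p = 0.244).

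DBP (chr19:49133287-49140636, minus strand, 2170 exon bases) was read by only 10 to 29 pairs per library, so that little could be detected. It stood at 1.13 and 0.829 CPM in control, 0.874 and 0.877 after 3 days, 0.591 and 0.797 after 6 days and 1.39 and 1.26 in MetaICM. Control enclosed the 3-day libraries, and the 6-day libraries were lowest. The log2FC against control was -0.19 (95% interval -1.13 to 0.76) after 3 days and -0.52 (-1.47 to 0.44) after 6 days, which leaves room for changes of the size seen in NR1D1. Of the exon bases of DBP, 377, or 17.37%, are also exon of SPHK2 on the opposite strand, which passed the cutoffs in no comparison.

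BHLHE40 (chr3:5021122-5027008, plus strand, 3152 exon bases) encodes DEC1, a bHLH repressor that competes at E-boxes and is also known to respond to serum and hypoxia. It stood at 17.9 and 13.2 CPM in control, 47.5 and 45.7 after 3 days, 25.7 and 24.6 after 6 days and 15.7 and 15.9 in MetaICM. Like the PER genes it had its highest mean after 3 days, but unlike them it was still above control after 6 days. The rise to 3 days was 2.97-fold, a log2FC of 1.57 (SE 0.17, edgeR adjusted p = 2.35e-05), and the level after 6 days was 1.603-fold above control, a log2FC of 0.68 (SE 0.17, edgeR adjusted p = 0.00773). From 3 to 6 days it fell by a log2FC of -0.89 (SE 0.11, edgeR adjusted p = 8.10e-06). Its exons share 4 bases with the antisense gene BHLHE40-AS1.

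After 3 days, 2 of the 10 genes were thus higher than control, PER1 and BHLHE40, against 8.85% of all 15692 genes tested, and none was lower, against 13.2%, in edgeR or DESeq2 and even at an unadjusted p under 0.05. In CPM, 7 of the 10 had both 3-day libraries above both control libraries, which held for 33.7% of all genes. The median log2FC of the 10 was 0.35, beside 0.01 for all genes tested. The call of PER1 was lost without control replicate 2, at 0.58, and without 3-day replicate 1, at 0.62, while that of BHLHE40 was kept without any 1 library.

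After 6 days, 4 of the 10 genes were lower than control, PER2, PER3, NR1D1 and TEF, against 17.2% of all 15950 genes tested, and BHLHE40 alone was higher, against 13.3%. In 8 of the 10, both 6-day libraries lay below both control libraries, against 36.1% of all genes. The median log2FC was -0.51, beside 0.00 for all genes tested. The 4 lower calls were kept without any 1 library, whereas BHLHE40 dropped below the cutoff without control replicate 2, at 0.49, and lost its adjusted p without 6-day replicate 1, at 0.66. Without control replicate 2, PER1 also passed, at -0.62.

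The step from 3 to 6 days compares the ICM time points directly, without the control libraries that both earlier comparisons share. Here 8 of the 10 genes were lower after 6 days, PER1, PER2, PER3, CRY2, NR1D1, NR1D2, TEF and BHLHE40, against 4.54% of all 15845 genes tested, and none was higher in edgeR or DESeq2, or at an unadjusted p under 0.05, against 3.53%. In 9 of the 10, both 6-day libraries lay below both 3-day libraries, against 29.5% of all genes. The median log2FC was -1.06, beside -0.01 for all genes. CRY1 at -0.02 (95% interval -0.25 to 0.21) and DBP at -0.34 (-1.24 to 0.57) did not pass. Leaving out each library in turn left 7 or 8 genes lower, with CRY2 the one that was lost. The plot of log2FC in the ICM comparisons sets the 10 genes side by side.

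**Figure D2:**
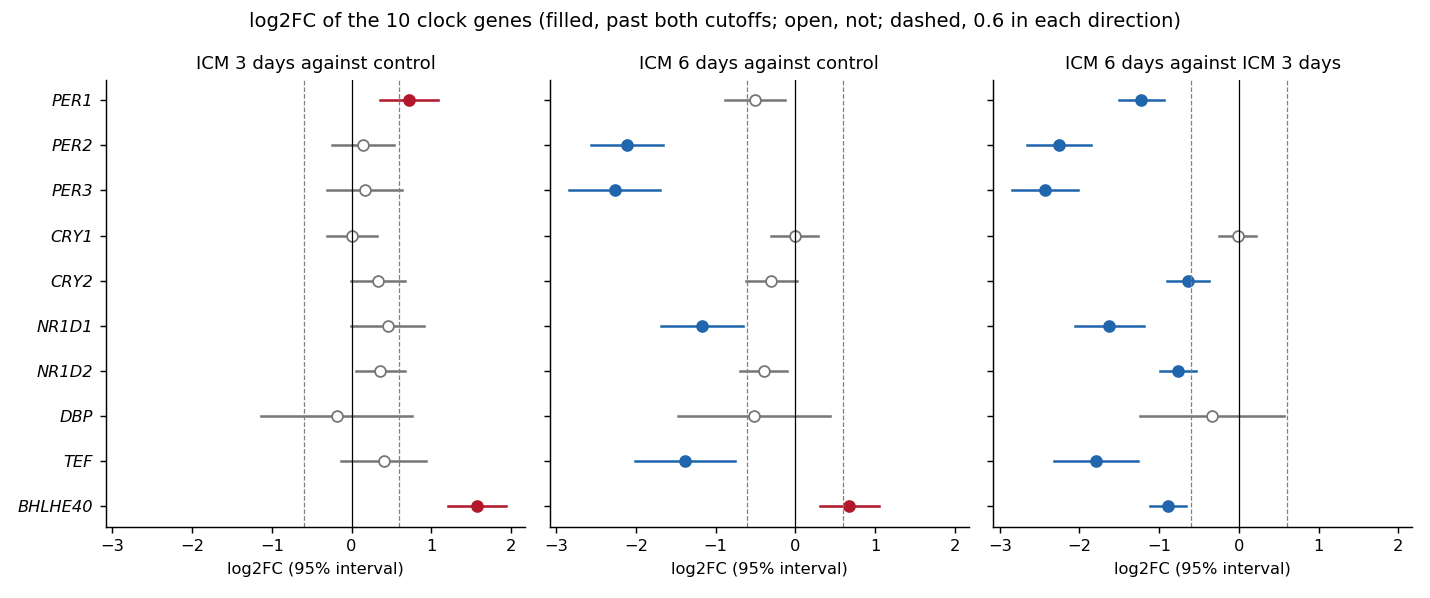
Log2FC (horizontal axes) of the 10 clock genes, with 95% intervals, for ICM 3 days and ICM 6 days against control and for ICM 6 days against ICM 3 days. Filled points passed both cutoffs (red higher, blue lower), and dashed lines mark a log2FC of 0.6 in each direction. In the last panel 8 points are filled and blue, from PER3 at -2.43 to CRY2 at -0.64, while CRY1 and DBP are open.

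Genes of the positive limb and the coupled loop outside the 10 did not move as a group. Of the other core clock genes, RORB and HLF had at most 5 counts in any library and were not tested. ARNTL, which encodes BMAL1, stood at 12.02 and 11.4 CPM in control, 11.3 and 11.3 after 3 days, 18.4 and 15.8 after 6 days and 15.6 and 13.6 in MetaICM. It was highest after 6 days, where NR1D1 was lowest, but its log2FC of 0.54 (SE 0.16, edgeR adjusted p = 0.0194) against control and 0.59 (SE 0.14, edgeR adjusted p = 0.00598) against 3 days lay just short of the cutoff. The latter passed with upper-quartile factors (0.60), with thinned libraries (0.63) and without 6-day replicate 2 (0.69).

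CLOCK, the partner of BMAL1, had 76.7 and 95.6 CPM in control, 65.5 and 83.2 after 3 days and 78.7 and 77.9 after 6 days, with overlapping libraries and no call. NPAS2, a CLOCK paralog that can take its place, fell from 18.8 and 20.3 CPM in control to 9.84 and 10.2 after 3 days, a log2FC of -0.97 (SE 0.17, edgeR adjusted p = 0.00122), and stood at 14.2 and 14.6 after 6 days, where its log2FC of -0.45 did not reach the cutoff. From 3 to 6 days its log2FC of 0.52 (SE 0.15, edgeR adjusted p = 0.0162) did not reach it either, but passed with thinned libraries (0.62). ARNTL2, the BMAL1 paralog, went from 34.0 and 33.4 CPM in control to 22.5 and 23.9 after 3 days and 21.98 and 19.2 after 6 days. Its fall passed only after 6 days, at -0.71 (SE 0.14, edgeR adjusted p = 0.00196) against -0.54 after 3 days, and lost its call without 6-day replicate 2 (-0.61).

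RORA, the activator that competes with the NR1D proteins at ROR elements, rose from 10.9 and 13.7 CPM in control to 20.4 and 22.9 after 3 days, a log2FC of 0.82 (SE 0.18, edgeR adjusted p = 0.00481). After 6 days it stood at 20.1 and 18.2 CPM, a log2FC of 0.65 (SE 0.17, edgeR adjusted p = 0.0107) that was lost without control replicate 1 (0.48) or 6-day replicate 1 (0.58). CIART, or CHRONO, which represses CLOCK and BMAL1 beside PER and CRY, rose from 1.37 and 1.57 CPM to 4.14 and 4.92 after 3 days, a log2FC of 1.62 (SE 0.30, edgeR adjusted p = 0.00187), and fell to 2.42 and 2.18 after 6 days, -0.97 (SE 0.25, edgeR adjusted p = 0.00959) against 3 days, a fall lost without 6-day replicate 2 (-0.90, edgeR adjusted p = 0.0714).

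NFIL3, the D-box repressor that opposes DBP and TEF, and CIPC, another inhibitor of CLOCK, passed in no ICM comparison, and neither did BHLHE41 (DEC2), which had 12 to 45 counts per library. With thinned libraries BHLHE41 was called higher after 6 days than in control (1.26, edgeR adjusted p = 0.0413), beside 0.93 with no call otherwise. Of the 9 other core clock genes tested, 2 were higher and 1 lower after 3 days, against 8.85% and 13.2% of all genes tested. After 6 days 1 was higher and 1 lower, against 13.3% and 17.2%. From 3 to 6 days none was higher and 1 was lower, against 3.53% and 4.54%. With thinned libraries 2 were higher after 6 days and 2 higher from 3 to 6 days. Their median log2FC was -0.05, 0.16 and 0.08 in these comparisons. The plot of the other core clock genes shows no course common to them.

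**Figure D3:**
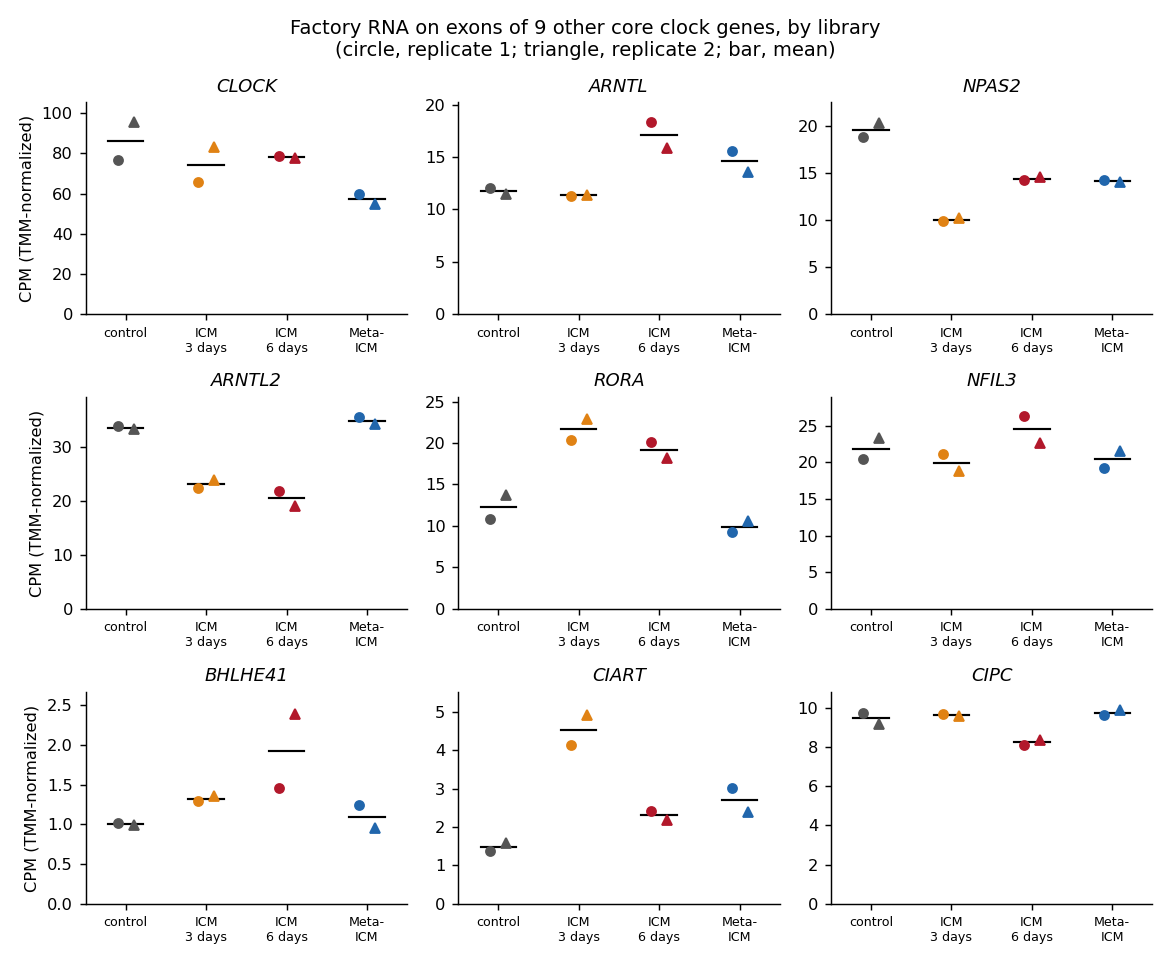
CPM of 9 core clock genes outside the 10 (vertical axes, each from 0) in the 8 libraries, by condition, with circles for replicate 1, triangles for replicate 2 and bars for the mean of 2. ARNTL is highest after 6 days, NPAS2 lowest after 3 days, RORA higher after 3 and 6 days than in control and MetaICM, and CIART highest after 3 days.

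Ratios between 2 clock genes of one library do not depend on its depth or scaling, and are given per exon length with no test, since 2 against 2 libraries cannot give an exact permutation p below 0.33. The log2 ratio of NR1D1 to ARNTL was -0.33 and -0.07 in control, 0.21 and 0.40 after 3 days, -2.23 and -1.62 after 6 days and -1.15 and -0.62 in MetaICM, with no overlap between conditions. The ratio of PER1 to PER2 rose from 0.89 and 0.76 in control to 1.45 and 1.38 after 3 days and 2.28 and 2.61 after 6 days, and was 0.59 and 0.93 in MetaICM. The PER genes thus did not fall by like amounts.

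The log2 ratio of CRY1 to CRY2 was 0.99 and 0.72 in control, 0.44 and 0.63 after 3 days, 1.21 and 1.10 after 6 days and 0.87 and 0.62 in MetaICM. PER2 and PER3 kept a ratio near equality in control, at 0.47 and -0.25, after 3 days, at 0.17 and -0.03, and after 6 days, at 0.26 and 0.24, but reached 0.78 and 0.70 in MetaICM, above all other libraries. NR1D1 to NR1D2 was -1.32 and -1.31 in control and -2.35 and -1.86 after 6 days, the steeper fall being that of NR1D1. Ratios with DBP or BHLHE41, which had few counts, spread widely between the libraries of some conditions, as the plot of ratios by library shows. DBP to TEF was -0.57 and 0.25 after 6 days, but -1.67 and -1.54 after 3 days. Among genes with more counts, PER2 to PER3 also stood far apart in control.

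**Figure D4:**
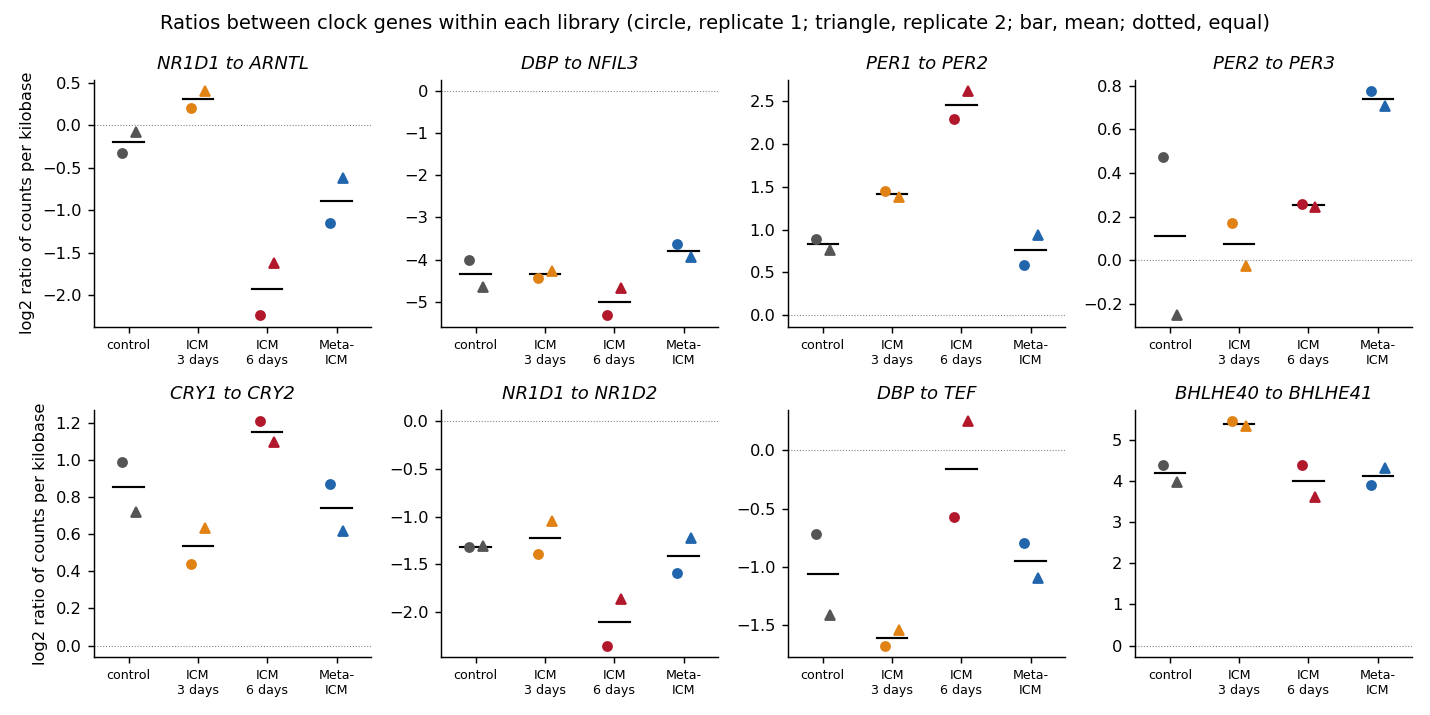
Log2 ratios of counts per kilobase of exon (vertical axes) between pairs of clock genes within each of the 8 libraries, by condition, with circles for replicate 1, triangles for replicate 2, bars for the mean of 2 and a dotted line where both genes are equal. NR1D1 to ARNTL is lowest after 6 days, at -2.23 and -1.62, and PER1 to PER2 is highest there, at 2.28 and 2.61.

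In MetaICM, 1 of the 10 genes was lower than in control, PER3, against 8.99% of all 15904 genes tested, and none was higher in edgeR or DESeq2, or at an unadjusted p under 0.05, against 7.41%. The log2FC of PER3 was -0.76 (SE 0.21, edgeR adjusted p = 0.0253), but the call was lost without control replicate 2 (-0.45), without either MetaICM replicate (-0.76 and -0.72) and at an adjusted p of 0.01. PER2 at -0.12 (95% interval -0.47 to 0.23), TEF at 0.34 (-0.14 to 0.81), PER1 at -0.19 (-0.55 to 0.17) and BHLHE40 at 0.01 (-0.36 to 0.38) did not pass. The median log2FC was -0.05, beside 0.00 for all genes. Of the other core clock genes none passed in edgeR or DESeq2, and 3 had an unadjusted p under 0.05, CLOCK at -0.59 (SE 0.13, edgeR adjusted p = 0.00900) and CIART at 0.88 (SE 0.30, edgeR adjusted p = 0.0542) coming closest, each called under several alternatives.

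Against 3 days of ICM, 5 of the 10 genes were lower in MetaICM, PER1, PER3, NR1D1, NR1D2 and BHLHE40, against 10.3% of all 16209 genes tested, and none was higher in edgeR or DESeq2, or at an unadjusted p under 0.05, against 13.1%. BHLHE40 had the largest difference, -1.56 (SE 0.10, edgeR adjusted p = 1.83e-08), followed by PER3 at -0.92 (SE 0.15, edgeR adjusted p = 0.000221), PER1 at -0.90 (SE 0.13, edgeR adjusted p = 4.54e-05) and NR1D1 at -0.81 (SE 0.18, edgeR adjusted p = 0.00241). NR1D2 at -0.64 (SE 0.10, edgeR adjusted p = 0.000104) fell short without 3-day replicate 1 (-0.57). RORA at -1.12 and CIART at -0.73 were lower as well, the latter lost without MetaICM replicate 2 (-0.58) and under DESeq2 (adjusted p = 0.0797), while NPAS2 and ARNTL2 were called higher under some alternatives only.

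Against 6 days of ICM, 5 of the 10 genes were higher in MetaICM, PER2, PER3, NR1D1, DBP and TEF, against 15.7% of all 16036 genes tested, and BHLHE40 was lower, against 12%. PER2 was 3.98-fold higher, a log2FC of 1.99 (SE 0.18, edgeR adjusted p = 4.71e-09), TEF 3.30-fold, 1.72 (SE 0.23, edgeR adjusted p = 2.01e-06), and PER3 2.84-fold, 1.51 (SE 0.20, edgeR adjusted p = 1.64e-06). BHLHE40 was lower by a log2FC of -0.67 (SE 0.10, edgeR adjusted p = 9.17e-06), and CRY2 at 0.58 (SE 0.10, edgeR adjusted p = 6.35e-05) stopped just short of the cutoff, which it passed without 6-day replicate 2 or without MetaICM replicate 1 (0.68 in both). NR1D1 at 0.81 (SE 0.21, edgeR adjusted p = 0.00258) lost its call without MetaICM replicate 2 (0.63). DBP at 0.92 (SE 0.37, edgeR adjusted p = 0.0405) was lost without any 1 of the 4 libraries and under DESeq2 (adjusted p = 0.221). Of the other core clock genes, ARNTL2 was higher at 0.76 (SE 0.10, edgeR adjusted p = 7.98e-07) and RORA lower at -0.95 (SE 0.12, edgeR adjusted p = 1.24e-06), while BHLHE41 at -0.81 (SE 0.33, edgeR adjusted p = 0.0447) was lost under DESeq2 (adjusted p = 0.194) and without 6-day replicate 2 (-0.41) or MetaICM replicate 2 (-0.63). The 3 MetaICM comparisons share the MetaICM libraries and are set side by side in the plot of their log2FC.

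**Figure D5:**
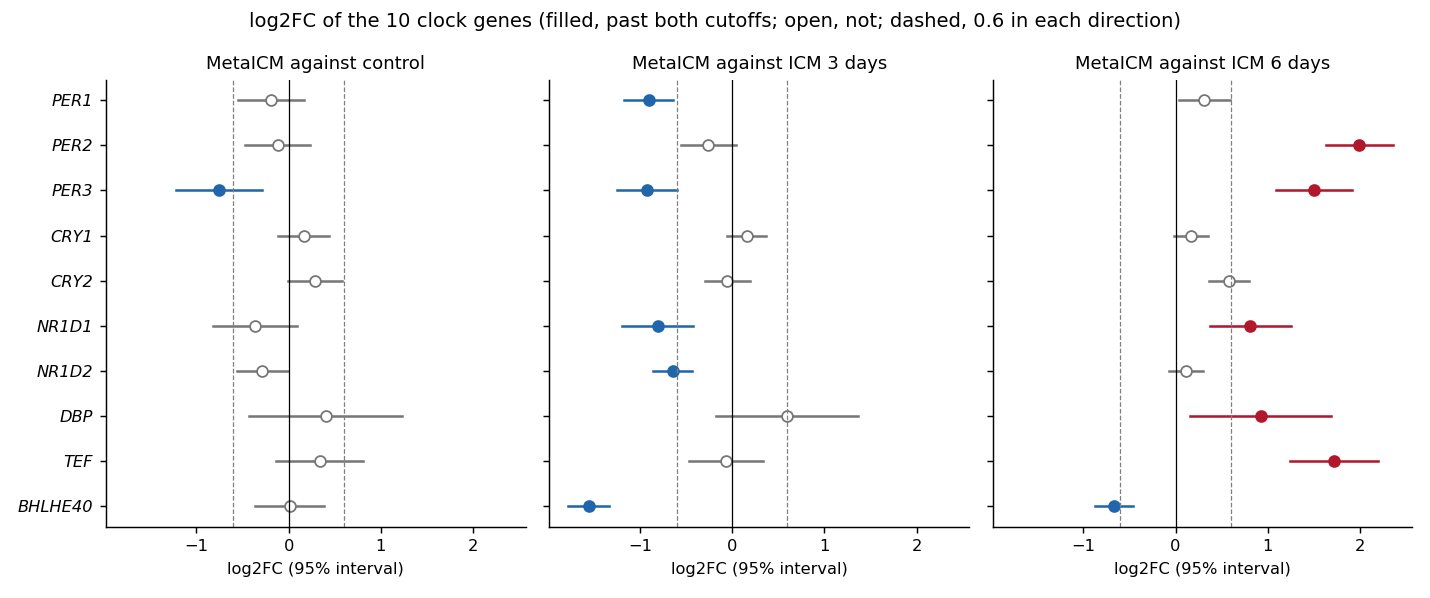
Log2FC (horizontal axes) of the 10 clock genes, with 95% intervals, for MetaICM against control, ICM 3 days and ICM 6 days. Filled points passed both cutoffs (red higher, blue lower), and dashed lines mark a log2FC of 0.6 in each direction. Against control only PER3, at -0.76, is filled, and against ICM 6 days PER2, PER3 and TEF lie between 1.51 and 1.99.

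Of 17 genes listed as kinases, ubiquitin ligases and other regulators of clock proteins, 16 were tested. One of these, CSNK1E, shares 87.21% of its exon bases with another gene. It had only 15 to 39 counts per library, so that little could be detected. After 3 days none of the 16 passed in edgeR or DESeq2, against 8.85% of all genes higher and 13.2% lower. At an unadjusted p under 0.05 edgeR had 3 higher and 1 lower. After 6 days 2 of the 16 were higher than control and 1 lower, against 13.3% and 17.2% of all genes tested. The higher ones were PRKAA2, a catalytic subunit of AMPK that phosphorylates CRY1, at 0.79 (SE 0.12, edgeR adjusted p = 0.000486), and BTRC, the F-box protein that marks PER proteins for degradation, at 0.79 (SE 0.12, edgeR adjusted p = 0.000586). SIRT1, a deacetylase of BMAL1 and PER2, was lower at -0.66 (SE 0.14, edgeR adjusted p = 0.00355), a call lost without control replicate 2 (-0.53) and without 6-day replicate 2 (-0.61). BTRC stood at 47.2 and 54.0 CPM in control and 90.5 and 84.4 after 6 days, and PRKAA2 at 36.8 and 38.9 against 67.4 and 63.7. From 3 to 6 days PRKAA2 alone passed, at 0.60, against 3.53% of all genes higher and 4.54% lower. This call on the edge of the cutoff was lost with library totals (0.57), with 10 counts required in every library (0.5995) and with thinned libraries (0.59). Leaving out 3-day replicate 1 (0.50) or 6-day replicate 1 (0.57) lost it as well. In MetaICM 2 of the 16 were lower than after 6 days, PRKAA2 by -1.20 and BTRC by -0.75, against 12% of all genes. In MetaICM none passed in edgeR against control, beside 7.41% of all genes higher and 8.99% lower. There 1 was higher and 4 lower at an unadjusted p under 0.05. None passed in edgeR against 3 days either, beside 13.1% of all genes higher and 10.3% lower. There 1 was higher and 7 lower at an unadjusted p under 0.05, and DESeq2 called 1 lower.

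Glucocorticoids reset the clock of fibroblasts and induce PER1, so that 12 genes known to be induced by them were read beside it. Of the 11 tested, 5 were higher and 3 lower than control after 3 days, against 8.85% and 13.2% of all genes, and 3 were higher and 6 lower after 6 days, against 13.3% and 17.2%, so they did not share a direction. After 3 days FKBP5, a co-chaperone of the glucocorticoid receptor, was lower at -1.24 (SE 0.19, edgeR adjusted p = 0.000513), while PDK4, a pyruvate dehydrogenase kinase, was higher at 1.19 (SE 0.26, edgeR adjusted p = 0.00496), a call lost under DESeq2 (adjusted p = 0.107). After 6 days PDK4 was at 2.08 and CRISPLD2, a secreted protein, at -1.86. KLF9 and SGK1 fell from 3 to 6 days, by -1.37 (SE 0.13, edgeR adjusted p = 3.04e-07) and -1.04 (SE 0.10, edgeR adjusted p = 3.71e-07). In that comparison 4 genes of the list were lower and 1 higher, against 4.54% and 3.53% of all genes. In MetaICM 4 were lower than control, against 8.99% of all genes. None was higher in edgeR or DESeq2, against 7.41%, with 1 higher at an unadjusted p under 0.05. Beside 3 days 4 were lower and 1 higher in MetaICM, against 10.3% and 13.1%. Beside 6 days 2 were lower and 3 higher, against 12% and 15.7%. Over all 6 comparisons the list's median log2FC ran from -0.64 to 0.40.

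The genes closest to a clock gene were found by the root mean square difference of centred log2 CPM over the 8 libraries, among 16590 others, for the 3 clock genes with the widest range between condition means. PER3 was closest to ADAM19, a metalloprotease, at 0.28, NOX4, an NADPH oxidase, at 0.29, and KIAA1755 at 0.30. PER2 was closest to KIAA1755 at 0.17, DEPP1 at 0.28 and TEF at 0.30. TEF was closest to LLGL2 at 0.20, LOC100507516 at 0.22 and ATP2A3, a calcium pump, at 0.23. LLGL2 lay near the floor, at 0.161 and 0.159 CPM after 6 days and at most 0.743 CPM in any library. LOC100507516 was low as well, at 1.13 and 0.691 CPM after 6 days. The nearest other clock gene stood at place 3 for PER2, 6 for PER3 and 12 for TEF, and between place 14 for PER1 and place 5261 for CRY1 for the other 7. KIAA1755 stood at 11.4 and 14.7 CPM in control, 12.2 and 13.8 after 3 days, 3.49 and 3.08 after 6 days and 12.1 and 11.5 in MetaICM, the course of PER2. These distances are descriptions over libraries that share conditions and depth.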

How the data were processed

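Factory RNA-seq libraries of IMR90 (2 for each of 4 conditions) were analysed from the read counts that the authors deposited for each library, with no normalization. Per the file headers and the labels' processing notes, the authors aligned read pairs to GRCh37 with STAR (2.6.0c) and counted them on exons of RefSeq genes with featureCounts (1.6.3), without strand, with both ends mapped, and leaving out pairs on several places or genes. The intronic RNA on which the study's own nascent RNA analysis rests was not analysed here.

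Each comparison of 2 conditions was fitted in edgeR (4.0.16, R 4.3.3) on its 4 libraries, with TMM scaling and genes kept by filterByExpr (minimum of 10 counts). P-values came from quasi-likelihood tests and were adjusted by Benjamini-Hochberg over all genes tested. Calls needed an adjusted p-value below 0.05 and a log2FC beyond 0.6 in either direction, following the study's results, and the SE was taken from the F statistic. An F-test over all 8 libraries had no fold cutoff. Totals ranged from 12095123 to 23166405 pairs, with a median of 18642269. The scripts were tested on simulated data.

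The 10 genes and all lists (other core clock genes, of which 1 is not reported here, 17 regulators of clock proteins, 12 glucocorticoid-induced genes, and markers of fibroblast, epithelial, endothelial and blood cells) were chosen with earlier results of these data known, from general knowledge. All 10 genes, all tested core clock genes, and the called regulators and glucocorticoid-induced genes, up to the 3 with the largest log2FC of a list in a comparison, could be named, as could the 3 closest genes to the 3 clock genes with the widest range (log2 CPM with a prior count of 2) and genes whose exons overlap those of a clock gene. One of the regulators was found under another symbol, as a pseudogene with at most 2 counts. CSNK1E was named as well, for its shared exons, and USP2 for its few counts. Alternatives were DESeq2 (1.42.0), size factors of DESeq2, upper-quartile factors or library totals, other filters on low counts, an adjusted p-value of 0.01, all libraries in one fit, a replicate block, thinning to the smallest total, and leaving out each library.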

Additional observations from a re-analysis of the deposited data

Results flagged for a closer look

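The effect of ICM after 6 days differed from that after 3 days for 8 of the 10 clock genes. This was by the direct edgeR comparison of the 2 time points, in which 8.07% of all 15845 genes tested passed. The differences in log2FC were -1.225 for PER1, -2.26 for PER2, -2.432 for PER3, -0.6381 for CRY2, -1.626 for NR1D1, -0.7626 for NR1D2, -1.793 for TEF and -0.8948 for BHLHE40. PER1, CRY2, NR1D1, NR1D2 and TEF, like PER2 and PER3, had a positive log2FC against control after 3 days and a negative one after 6 days, although of these values at 3 days only that of PER1 passed. How many of all genes changed sign in this way was not counted. BHLHE40 stayed positive at both times, at 1.57 and 0.68. Among the genes read beside them, the difference was -0.9712 for CIART, 0.6012 for PRKAA2, -1.367 for KLF9, -1.039 for SGK1 and -1.187 for CRISPLD2. The call of PRKAA2 lay on the edge of the log2FC cutoff of 0.6 and was lost with library totals, with 10 counts required in every library, with thinned libraries and without 3-day or 6-day replicate 1, at 0.50 to 0.5995. That of CIART was lost without 6-day replicate 2, and that of CRY2 with thinned libraries and without 3-day or 6-day replicate 1. KLF9 went from 0.62 after 3 days to -0.75 after 6 days. The harvest time of the cultures was not given, and its part in these differences was not tested. With 2 libraries per condition, no library was tested for standing apart from its condition.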

How the results depend on the processing

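The counts of clock genes called, after 3 days (2 higher), after 6 days (1 higher, 4 lower) and from 3 to 6 days (8 lower), were within 1.5 times of these under every alternative that kept all libraries, and the F-test over 4 conditions gave 8 genes under all. An adjusted p of 0.01 left 0 of the 10 genes lower in MetaICM than in control, with 664 genes higher and 868 lower among all genes. With library totals as the only scaling, 1785 genes were higher and 1767 lower after 3 days, instead of 1389 and 2067. Deviations of replicate 1 correlated weakly between conditions (-0.11 to 0.17), which cannot decide whether the replicate numbers pair the libraries. The replicate block changed no call of the 10 genes, with 1606 genes higher and 2309 lower after 3 days. It did call CIART in MetaICM against control (0.8833). Leaving out each library in turn, where the remaining library of its condition is assumed to vary like the others, gave 1 to 2 clock genes higher after 3 days (851 to 1898 of all genes), 0 to 1 higher after 6 days, 0 to 1 lower in MetaICM than in control (580 to 1970 of all genes, with 469 to 2116 higher) and 3 to 5 higher in MetaICM than after 6 days. Signs turned only for differences that passed in no setting. With DESeq2, DESeq2 size factors and thinning, CRY1 after 3 days was at -0.003104, -0.003315 and -0.02881, and after 6 days it was at 0.0006869 with upper-quartile factors, 0.03783 with library totals and 0.01866 with all genes. Library totals gave 0.0223 for ARNTL after 3 days, and for MetaICM against 3 days -0.02253 for NFIL3 and -0.02977 for CIPC. Thinning gave -0.01154 for CIPC and 0.02766 for TEF in that comparison and 0.02598 for NPAS2 in MetaICM against 6 days, and upper-quartile factors gave -0.007262 for BHLHE40 in MetaICM against control. Without 1 library, ranges crossing 0 were, after 3 days, -0.1089 to 0.4548 for PER3, -0.08918 to 0.09269 for CRY1, -0.3877 to 0.0784 for DBP and -0.0416 to 0.06502 for CIPC. After 6 days they were -0.07935 to 0.07002 for CRY1 and -0.2992 to 0.03027 for CLOCK, and from 3 to 6 days -0.05262 to 0.03108 for CRY1 and -0.08659 to 0.2442 for CLOCK. In MetaICM against control they were -0.04714 to 0.3131 for BHLHE41, -0.181 to 0.2646 for BHLHE40 and -0.1858 to 0.005802 for NFIL3, and against 3 days -0.1505 to 0.06679 for CRY2, -0.1561 to 0.01943 for TEF, -0.05946 to 0.1216 for NFIL3 and -0.00223 to 0.05171 for CIPC. The cause of these shifts was not tested.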
